A study of Homo sapiens with 8 samples.

Results

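The genes described here are the core machinery and the cargo receptors of autophagy, 41 genes in all, measured in 2 human liver cancer cell lines with and without GSK343. They were chosen by name: a probe counts where the platform's annotation gives it 1 gene symbol and that symbol, or an older alias, is on the list. The list was drawn up with earlier results of these data known. Its shares against all genes are therefore descriptions, not tests. All 41 genes were found, by 57 of the 31741 probes, and they stand among 18336 genes that a 1-symbol probe measured. A gene is represented by its probe with the highest mean over all arrays. For the 12 genes with several probes, a further probe is given where its sign or its call differs within a line or between the untreated lines. ATG101 was found under the older symbol C12orf44.

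Autophagy delivers cytoplasm and damaged organelles to the lysosome in a double-membrane vesicle, the autophagosome. The ULK kinase complex starts it, the class III phosphatidylinositol 3-kinase complex of BECN1 marks the site, and ATG9A vesicles, ATG2 lipid transfer proteins and WIPI proteins supply and shape the growing membrane. Conjugation enzymes then attach the small proteins of the ATG8 family (the LC3 and GABARAP proteins) to lipid, and receptors such as SQSTM1 (p62) tether cargo to them, while BNIP3, BNIP3L and FUNDC1 sit in the mitochondrial outer membrane and mark mitochondria for removal. In liver, autophagy is known for the turnover of mitochondria, lipid droplets and protein aggregates. The arrays measured transcript levels, which do not give the rate at which autophagosomes are formed or degraded.

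The groups were PLC5 cells with 10 µM GSK343, PLC5 control cells, HepG2 cells with 10 µM GSK343 and HepG2 control cells, with 2 one-colour arrays in each group and 8 in all. GSK343 is a small-molecule inhibitor of EZH2, the catalytic subunit of the Polycomb complex PRC2, and the stated question was which genes it regulates in these cells. The sample titles and the design text give 16 h of exposure and the treatment protocol gives 6 h, the solvent given to the controls is not stated, and all cells were grown with serum. Each line is a single culture model, no label ties the 2 arrays in a group to separate cultures, and p-values then measure only the spread between these arrays, which may be technical.

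Values are array intensities, quantile normalized over the 8 arrays, and log2 fold changes with the standard error of a limma fit to all arrays (n = 2 per group). P-values carry the Benjamini-Hochberg adjustment over every probe on the array, and a gene is called at an adjusted p under 0.05. The median deposited intensity ranged between 483 and 552 in PLC5 with GSK343, 415 and 495 in PLC5 controls, 313 and 341 in HepG2 with GSK343, and 226 and 239 in HepG2 controls. Without normalization the median of all probes therefore moved by 0.11 (log2) with GSK343 in PLC5, by 0.50 in HepG2 and by 0.86 between the controls of the lines, and the changes below are relative to those shifts. Replicate arrays correlated at 0.984 to 0.989 over all probes, arrays of the same line at 0.978 to 0.987 and arrays of different lines at 0.887 to 0.903, so that the lines stood apart. Hepatocyte markers were measured for 9 of 10 listed genes and none lay below an intensity of 64 in any group; their summed level was 335000 and 339000 in PLC5 with GSK343 and PLC5 controls, and 1340000 and 1240000 in HepG2 with GSK343 and HepG2 controls. The gap between the lines varied by marker: albumin (ALB), the defining secreted protein of hepatocytes, averaged 667 and 745 in those PLC5 groups and 181000 and 146000 in those HepG2 groups, apolipoprotein B (APOB) 90800 and 84500 against 180000 and 145000, and fibrinogen beta (FGB), which went the other way, 62900 and 84300 against 15100 and 19900. Of other cell types' markers, PTPRC and CD3E of leukocytes and DCN of fibroblasts lay below 64 in every group. The leukocyte genes LYZ (4380 to 9190) and CD68 (1540 to 1900) and all 5 endothelial markers lay above it in every group. So did the fibroblast genes COL1A1 (1250 to 1910), LUM (213 to 390) and PDGFRB (235 to 1620), while COL3A1 did so only in PLC5 controls (73.9). Summed levels with GSK343, against control, were 6040 against 6460 in PLC5 and 6840 against 11200 in HepG2 for the 4 measured leukocyte markers, 1500 against 1290 and 1980 against 1560 for the 5 endothelial markers, and 2430 against 1970 and 2630 against 3810 for the 5 fibroblast markers. The part of these markers in the results below was not tested.

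The promoters of a few members are shown so that their motifs can be read beside the changes. RefSeq promoters (GRCh38.p14, 250 bases before to 50 after each gene's start, read 5′ to 3′ on the gene's strand) were matched for 35 of the 41 genes. They were searched on both strands for the E-box CACGTG, the longer element TCACGTGA that contains it and is read by TFEB, the factor that drives lysosomal and autophagy genes, the hypoxia element ACGTGC, which can overlap CACGTG, the ATF4 element TGATGNAA and the FOXO element GTAAACA. The 4 promoters below are those of WIPI1 and BNIP3, called in PLC5, of GABARAPL2, called in HepG2, and of ATG3, which held the most matches among the 35; capitals mark matches to any of the 5 motifs. BNIP3 lies at chr10:131981874-131982173 on the minus strand, WIPI1 at chr17:68457447-68457746 on the minus strand, GABARAPL2 at chr16:75566129-75566428 on the plus strand and ATG3 at chr3:112561913-112562212 on the minus strand.
WIPI1: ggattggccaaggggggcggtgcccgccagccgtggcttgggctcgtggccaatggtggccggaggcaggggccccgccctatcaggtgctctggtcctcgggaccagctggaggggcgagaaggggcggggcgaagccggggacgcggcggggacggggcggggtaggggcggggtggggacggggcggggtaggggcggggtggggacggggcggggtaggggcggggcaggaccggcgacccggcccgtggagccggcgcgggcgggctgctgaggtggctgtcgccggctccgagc
BNIP3: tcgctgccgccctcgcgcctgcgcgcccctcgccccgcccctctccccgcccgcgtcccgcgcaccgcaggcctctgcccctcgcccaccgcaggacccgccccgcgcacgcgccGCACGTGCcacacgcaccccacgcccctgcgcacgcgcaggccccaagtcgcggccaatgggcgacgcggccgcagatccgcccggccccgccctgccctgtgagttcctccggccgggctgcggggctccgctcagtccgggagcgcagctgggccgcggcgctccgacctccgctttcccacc
GABARAPL2: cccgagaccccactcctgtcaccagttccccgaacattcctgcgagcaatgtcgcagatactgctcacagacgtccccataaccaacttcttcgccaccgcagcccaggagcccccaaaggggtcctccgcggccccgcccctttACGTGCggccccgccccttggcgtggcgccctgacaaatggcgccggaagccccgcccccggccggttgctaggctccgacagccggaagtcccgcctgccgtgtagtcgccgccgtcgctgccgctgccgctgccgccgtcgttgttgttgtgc
ATG3: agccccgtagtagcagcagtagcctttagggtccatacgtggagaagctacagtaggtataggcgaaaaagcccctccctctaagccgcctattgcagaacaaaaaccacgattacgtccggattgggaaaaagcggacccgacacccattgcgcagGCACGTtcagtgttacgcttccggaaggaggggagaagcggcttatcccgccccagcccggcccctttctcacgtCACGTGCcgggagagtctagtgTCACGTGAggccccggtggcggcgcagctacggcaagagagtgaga

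BNIP3 held the hypoxia element on both strands around an E-box, with matches that began at -135, -134 and -133 from the start. GABARAPL2 held 1 hypoxia element at -105. WIPI1 held none of the 5 motifs, which says only that these letters are not in this window. ATG3 held hypoxia elements at -93 and -17, E-boxes at -18 and 6, and the TFEB element at 5. Over all matched members, the E-box was in 3 of 35 promoters (8.57%, against 7.43% of all 27305 promoters), the TFEB element in 1 (2.86%, against 1.04%), the hypoxia element in 3 (8.57%, against 6.87%), the FOXO element in 1 (2.86%, against 3.41%) and the ATF4 element in 0 (against 3.67%). The members were thus near the share of all promoters for the E-box and the hypoxia element, and the other counts are too small to set apart.

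In PLC5, GSK343 raised 4 of the 41 genes and lowered none. They were BNIP3L, BNIP3 and SQSTM1 among the receptors and WIPI1, a phosphoinositide-binding protein of the growing membrane, with fold changes between 1.5 and 2.35. The 4 called genes are 9.76% of the list, against 0.834% of all genes called higher, and 0 were called lower, against 0.235% of all genes. At an unadjusted p under 0.05 limma gave 12 higher (29.3%, against 7.88% of all genes) and 1 lower (2.44%, against 8.20%). Of the brighter 50% of genes, 1.43% were called higher and 0.393% lower in PLC5, with 10.6% and 12.3% before adjustment. The median change of the list was 0.18, against -0.01 over all genes and -0.02 over the brighter 50% of genes, to which 34 of the 41 belong; 33 genes lay above 0 and 8 below. Each value is an average over a whole culture, so a change in every cell and a change in some of the cells cannot be told apart.

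**Figure D1:**
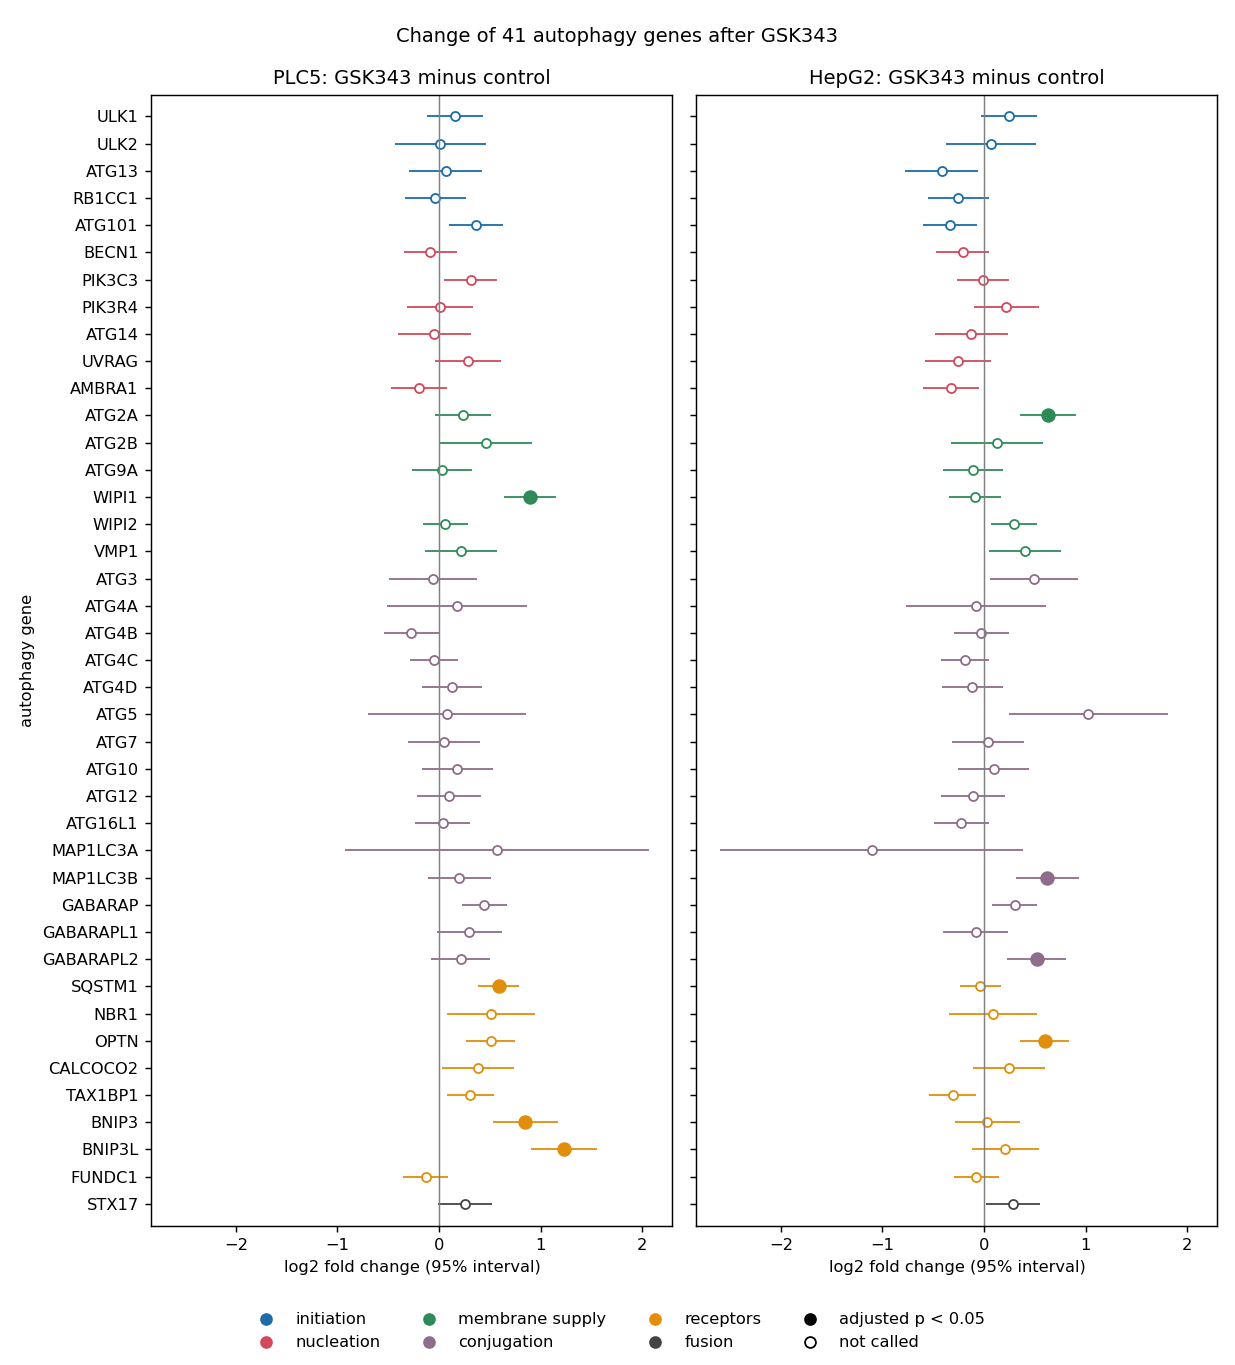
Log2 fold change of each of the 41 autophagy genes after GSK343 (x axis, with 95% intervals) in PLC5 (left) and HepG2 (right), listed by step; filled points were called at an adjusted p under 0.05. In PLC5 the filled points are WIPI1, SQSTM1, BNIP3 and BNIP3L, in HepG2 they are ATG2A, MAP1LC3B, GABARAPL2 and OPTN.

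BNIP3L (also NIX), the receptor that removes mitochondria from maturing red cells, had 3969 and 3858 with GSK343, against 1824 and 1524 in control PLC5 cells. Both treated arrays lay far above both controls, and the change was 1.23 ± 0.14 (2.35-fold, adjusted p = 0.00624, limma). BNIP3, its close relative and a textbook target of hypoxia signalling, had 12664 and 10088 with GSK343, against 6395 and 6164 in controls. The groups did not overlap although the treated arrays were apart from each other, and the change was 0.85 ± 0.14 (1.80-fold, adjusted p = 0.0349, limma). SQSTM1, the receptor for ubiquitinated aggregates and itself a cargo of autophagy, had 79769 and 80271 with GSK343, against 51442 and 55146 in controls. The treated arrays nearly coincided above the controls, with a change of 0.59 ± 0.09 (1.5-fold, adjusted p = 0.0243, limma). WIPI1 had 10600 and 11722 with GSK343, against 5805 and 6194 in controls. It changed by 0.89 ± 0.11 (1.86-fold, adjusted p = 0.0097, limma), with no overlap.

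These 4 calls depended on single arrays. BNIP3L was not called without the first GSK343 array of PLC5 (adjusted p = 0.0524), and WIPI1 was not called without the first PLC5 control (0.0705) or the second PLC5 GSK343 array (0.0694). SQSTM1 lost its call without any array other than the second PLC5 control (adjusted p 0.0617 to 0.122), and BNIP3 without any array other than the second PLC5 GSK343 array (0.0603 to 0.163). With arrays centred on their median instead of quantile normalized, WIPI1 and BNIP3L were the 2 calls, the list's median was 0.04, against -0.09 over all genes, and 26 genes lay above 0.

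**Figure D2:**
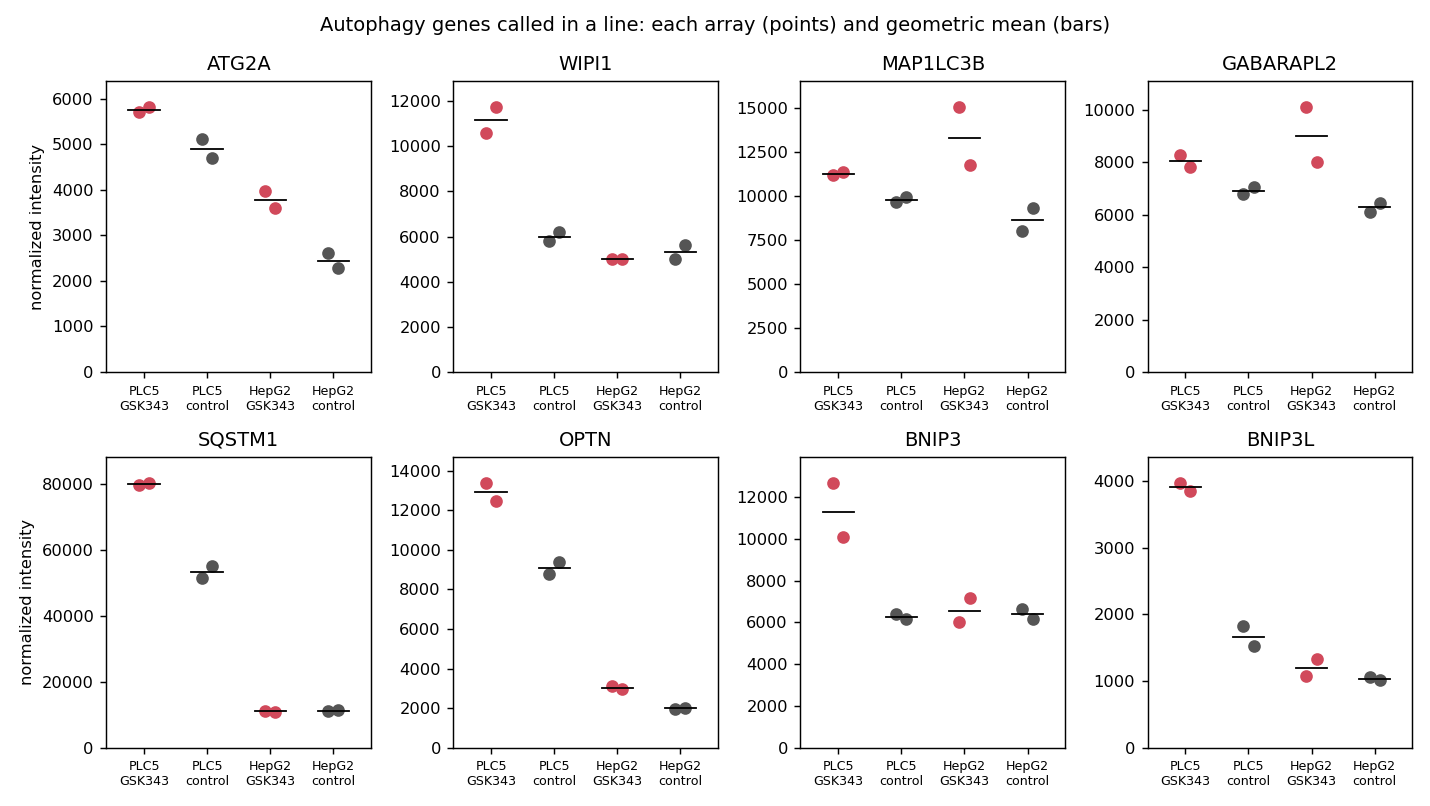
Normalized intensity (linear y axis from 0) of the 8 autophagy genes called in a line, by array (points) and geometric mean (bars), GSK343 in red and control in grey. WIPI1, SQSTM1, BNIP3 and BNIP3L separate GSK343 from control in PLC5, where SQSTM1 reaches 80271; in HepG2 the SQSTM1 arrays lie between 10897 and 11395.

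The other 5 receptors in PLC5 were not called. OPTN, a receptor for ubiquitinated mitochondria and bacteria, had 13372 and 12457 with GSK343, against 8759 and 9376 in controls, a change of 0.51 ± 0.11 that missed the call (adjusted p = 0.0775, limma). NBR1, a partner of SQSTM1, had 10613 and 8339 with GSK343, against 5975 and 7289 in controls (0.51 ± 0.19, adjusted p = 0.27, limma). Both groups of arrays were separate for each of these genes. CALCOCO2 (NDP52) and TAX1BP1, a pair of related receptors, had values of 0.38 and 0.31, and FUNDC1 was the only receptor below 0, at -0.13. The 8 receptors had a median change of 0.51. At an unadjusted p under 0.05, 7 of them were higher, the exception being FUNDC1. That is 87.5%, against 7.88% of all genes and 10.6% of the brighter 50% of genes.

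The other steps in PLC5 held no call beyond WIPI1. The 5 initiation genes had a median change of 0.06, from -0.04 (RB1CC1) to 0.36 (ATG101, a subunit of the ULK complex), and the 6 nucleation genes one of -0.02, from -0.20 (AMBRA1) to 0.31 (PIK3C3, the lipid kinase itself). Of the 6 genes of membrane supply all lay above 0. ATG2B, a lipid transfer protein, had 8424 and 6501 with GSK343, against 4617 and 6264 in control PLC5 cells (0.46 ± 0.20, adjusted p = 0.337, limma), so its groups were separate by a narrow margin, and its dim further probe went the other way (-0.43). The 15 conjugation genes had a median of 0.12, from -0.27 (ATG4B, a protease that primes ATG8 proteins) to 0.57 (MAP1LC3A). MAP1LC3A, an LC3 protein, had 208 and 273 with GSK343, against 93.6 and 274 in controls, so the groups overlapped and the difference (0.57 ± 0.66) was within the spread of its controls. The 5 ATG8 family genes all lay above 0, from 0.20 to 0.57, with 0 called; GABARAP came nearest, at 0.44 ± 0.10 (adjusted p = 0.0863, limma). STX17, the SNARE protein of fusion with lysosomes, had 0.26 (adjusted p = 0.358, limma). Further, dimmer probes had the opposite sign, without a call, for MAP1LC3A (-0.68), WIPI2 (-0.34, against 0.06), ATG3 (0.21, against -0.06), STX17 (-0.17) and ATG12 (-0.05, against 0.09). Over the whole list, both treated arrays lay above both controls for 23 genes (56.1%, against 22.8% of all genes) and below them for 4 (9.76%, against 22.8%), and overlapped for 14.

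In HepG2, GSK343 raised 4 other genes and again lowered none: OPTN, the lipid transfer protein gene ATG2A, and the ATG8 family genes MAP1LC3B and GABARAPL2, by 1.43- to 1.55-fold. These are 9.76% of the list, against 5.35% of all genes called higher in HepG2, and the 0 called lower stand against 3.45%. At an unadjusted p under 0.05 limma gave 10 higher (24.4%, against 14.4% of all genes) and 4 lower (9.76%, against 13.7%). Of the brighter 50% of genes, 5.88% were called higher and 4.92% lower, with 15% and 16.6% before adjustment. The list's median was -0.01 and that of all genes -0.01, with 20 genes above 0 and 21 below, so the list as a whole did not stand apart from the other genes.

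OPTN had 3106 and 2948 with GSK343, against 1983 and 2017 in control HepG2 cells. Replicates were tight in both groups and the change was 0.60 ± 0.11 (1.51-fold, adjusted p = 0.0155, limma). Its further probe had 0.34 and was not called (adjusted p = 0.129, limma). ATG2A had 3971 and 3590 with GSK343, against 2615 and 2277 in controls, and changed by 0.63 ± 0.12 (1.55-fold, adjusted p = 0.0197, limma). MAP1LC3B, the LC3 protein whose lipidated form is the usual marker of autophagosomes, had 15006 and 11734 with GSK343, against 8008 and 9298 in controls. The treated arrays lay above the controls but were well apart from each other, and the change was 0.62 ± 0.14 (1.54-fold, adjusted p = 0.03, limma). GABARAPL2 had 10077 and 8014 with GSK343, against 6099 and 6446 in controls, and changed by 0.52 ± 0.13 (1.43-fold, adjusted p = 0.0435, limma). For both ATG8 genes the first GSK343 array was the higher one.

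These calls, too, depended on single arrays. OPTN was lost without any 1 of the 4 HepG2 arrays (adjusted p 0.0671 to 0.089), and GABARAPL2 without any 1 of all 8 (0.054 to 0.199). ATG2A was lost without the second HepG2 control (0.124), the first HepG2 GSK343 array (0.109) or the second (0.0695), and MAP1LC3B without the first HepG2 control (0.123), the second (0.0735) or the first HepG2 GSK343 array (0.146). With arrays centred on their median the calls in HepG2 were 2 higher (ATG2A and OPTN) and 1 lower (ATG101).

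Among the HepG2 genes that were not called, 4 had the next largest values. MAP1LC3A had 121 and 116 with GSK343, against 539 and 120 in controls, so its -1.11 ± 0.66 came with controls far apart from each other, 1 of them level with the treated arrays. ATG5, which forms the conjugate with ATG12 that helps to lipidate ATG8 proteins, had 120 and 128 with GSK343, against 40.0 and 93.0 in controls (1.03 ± 0.34, adjusted p = 0.0993, limma). It is dim in this line and its controls differed widely. ATG3, the E2-like enzyme of ATG8 lipidation, had 9995 and 7687 with GSK343, against 7142 and 5446 in controls (0.49 ± 0.19, adjusted p = 0.143, limma). Its further probe, with 3802 and 4216 against 2369 and 2416, was called (0.74 ± 0.12, adjusted p = 0.012, limma). ATG13, an adaptor of the ULK complex, had 2148 and 2172 with GSK343, against 2822 and 2950 in controls (-0.42 ± 0.16, adjusted p = 0.133, limma), and its further probe had -0.38. A further probe of ATG12, the ubiquitin-like partner of ATG5, was called as well (0.65 ± 0.14, adjusted p = 0.0295, limma), while the brighter probes of that gene had -0.11 and -0.15.

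By step, HepG2 values were below 0 on median for initiation (-0.25) and nucleation (-0.17), near 0 for conjugation (-0.03) and receptors (0.06), and above 0 for membrane supply (0.21), with STX17 at 0.29. No initiation or nucleation gene was called in HepG2, and their values lay between -0.42 and 0.25. Dimmer probes of ULK2 (-0.96, against 0.07), ATG2B (-0.61, against 0.13), UVRAG (0.27, against -0.26), WIPI2 (-0.34, against 0.30) and ATG7 (-0.05, against 0.04) differed in sign from the brightest probe of their gene, without a call. Both treated arrays lay above both controls for 14 of the 41 genes (34.1%, against 29.2% of all genes) and below them for 12 (29.3%, against 30.9%), and overlapped for 15. These shares are near those of all genes.

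**Figure D3:**
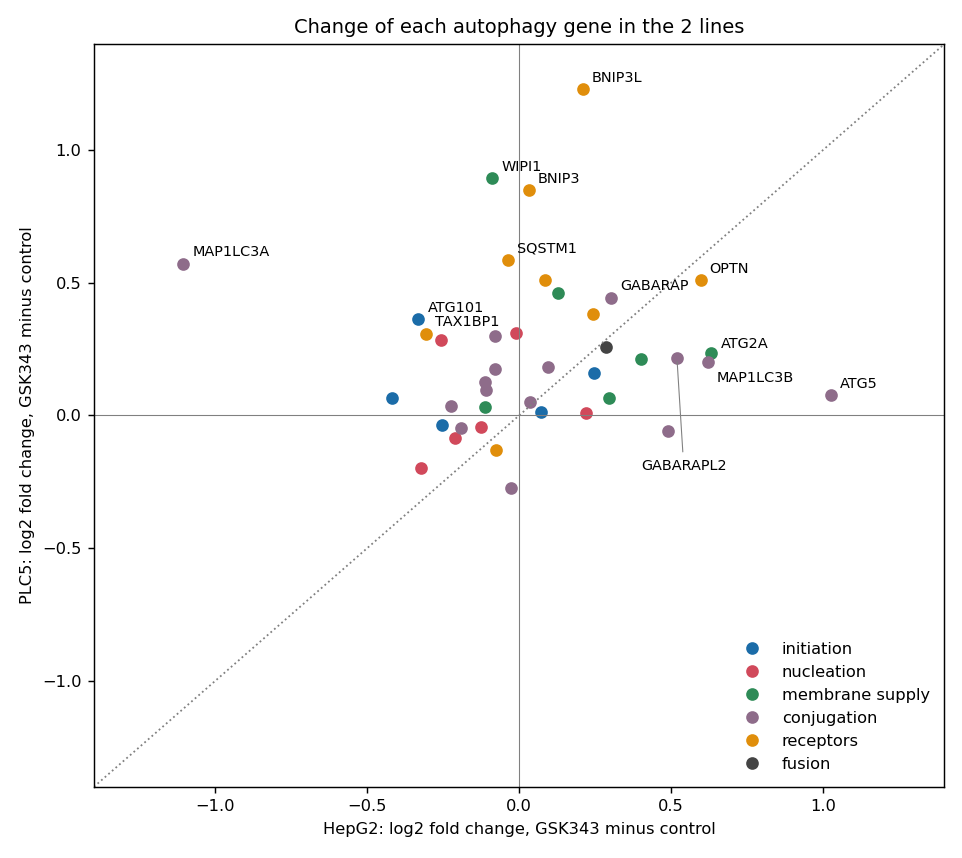
Log2 fold change after GSK343 in PLC5 (y axis) against that in HepG2 (x axis) for each of the 41 autophagy genes, coloured by step; the dotted line marks equal change. BNIP3L, WIPI1, BNIP3 and SQSTM1 lie high in PLC5 and near 0.21, -0.09, 0.03 and -0.04 in HepG2, and OPTN lies near the dotted line.

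Whether the lines differ in their change was tested directly, as the change in PLC5 minus that in HepG2. No gene was called in both lines, 8 were called in 1 of them and 33 in neither, but a call in 1 line is no test of the difference. WIPI1 alone differed, at 0.98 ± 0.16 (adjusted p = 0.0469, limma): its change was 0.89 in PLC5 and -0.09 in HepG2, where it had 5007 and 4989 with GSK343, against 5006 and 5638 in controls. That is 2.44% of the list, against 0.436% of all genes called higher in this comparison, and 0 were called lower, against 0.404%, while before adjustment 7 had a p under 0.05 as higher (17.1%, against 8.67% of all genes) and 1 as lower (2.44%, against 9.82%) in limma. The WIPI1 difference was not called without any 1 of the 8 arrays (adjusted p 0.0701 to 0.148).

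Other members had differences of 0.62 or more in size without a call. BNIP3L differed by 1.02 (adjusted p = 0.0688, limma), with 1082 and 1330 in HepG2 with GSK343, against 1060 and 1015 in HepG2 controls. BNIP3 differed by 0.82 (adjusted p = 0.101, limma), with 6015 and 7145 against 6658 and 6182 in HepG2. SQSTM1 differed by 0.62 (adjusted p = 0.0702, limma), and its HepG2 arrays, 11100 and 10897 against 11160 and 11395, lay close together. TAX1BP1 had 0.31 in PLC5 and -0.31 in HepG2, with 25927 and 23916 against 19584 and 20656 in PLC5 and 14308 and 15878 against 18925 and 18398 in HepG2 (difference 0.62, adjusted p = 0.0922, limma). ATG101 likewise had 0.36 in PLC5 and -0.33 in HepG2, with 18643 and 21476 against 16848 and 14391 in PLC5 and 12758 and 13490 against 16651 and 16372 in HepG2 (difference 0.69, adjusted p = 0.0975, limma). In both of these genes the treated arrays were clear of the controls in each line, in opposite directions. The 2 largest differences by size beside BNIP3L and WIPI1 were MAP1LC3A (1.68, adjusted p = 0.391, limma) and ATG5 (-0.95, adjusted p = 0.353, limma), both dim and scattered. OPTN, by contrast, had 0.51 in PLC5 and 0.60 in HepG2, a difference of -0.09 with a 95% interval from -0.43 to 0.25.

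The untreated lines differed in more of these genes than treated and control cells of either line. Of the 41 genes, 15 were higher in PLC5 controls than in HepG2 controls (36.6%, against 26.8% of all genes) and 9 were lower (22%, against 31.6%). Together that is 58.5% of the list, the same share as over all genes, so autophagy genes separated the lines no more often than others. In the brighter 50% of genes, to which 34 of the 41 belong, the share was 68.7% (32.8% higher and 35.9% lower). The median difference was 0.15, against -0.09 over all genes. Without normalization the split was 33 higher and 0 lower, so the direction of the smaller differences depends on the scaling.

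The receptors were the step in which PLC5 stood highest, with 5 of 8 called higher (62.5%, against 26.8% of all genes) and 0 lower (against 31.6%). SQSTM1 had 51442 and 55146 in PLC5 controls, against 11160 and 11395 in HepG2 controls (2.24 ± 0.09, 4.72-fold, adjusted p = 7.73e-08, limma). OPTN had 8759 and 9376 in PLC5 controls, against 1983 and 2017 in HepG2 controls (2.18 ± 0.11, adjusted p = 3.03e-07, limma), and its further probe had 2.37. CALCOCO2, the receptor for invading bacteria, had 4834 and 3479 in PLC5 controls, against 1114 and 1090 in HepG2 controls (1.90 ± 0.16, adjusted p = 1.01e-05, limma). BNIP3L and FUNDC1 were also called, at 0.68 and 1.06, while BNIP3, NBR1 and TAX1BP1 lay between -0.06 and 0.11 without a call. The genes that GSK343 raised in PLC5 thus began at different places: SQSTM1 and BNIP3L already stood above HepG2 in control cells, and for WIPI1 (0.17, adjusted p = 0.223, limma) and BNIP3 (-0.03, adjusted p = 0.869, limma) no difference was called.

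Conjugation genes went both ways, 5 higher (33.3%, against 26.8% of all genes) and 4 lower (26.7%, against 31.6%). These shares are near those of all genes. ATG5 had 340 and 382 in PLC5 controls, against 40.0 and 93.0 in HepG2 controls (2.56 ± 0.34, adjusted p = 0.000232, limma). Its HepG2 control mean of 61.0 lies under the dim level of 64 and its arrays were far apart, so no fold is given. GABARAPL1, an ATG8 protein, had 442 and 380 in PLC5 controls, against 115 and 114 in HepG2 controls (1.84 ± 0.14, adjusted p = 6.36e-06, limma). It was the 1 called gene among the 5 of the ATG8 family. ATG10, the E2-like enzyme for ATG12, had 1198 and 1047 in PLC5 controls, against 389 and 481 in HepG2 controls (1.37 ± 0.15, adjusted p = 7.1e-05, limma), and the protease gene ATG4A had 3856 and 4125, against 2520 and 1216 (1.19 ± 0.30, adjusted p = 0.00911, limma). ATG16L1, which places the lipidation enzymes on the membrane, was the lowest of the conjugation genes, at -1.04 ± 0.12, followed by ATG7, the E1-like enzyme of both conjugation systems, at -0.80 ± 0.16.

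Membrane supply had 3 of 6 genes higher (50%, against 26.8% of all genes) and 1 lower (16.7%, against 31.6%). ATG2B had 4617 and 6264 in PLC5 controls, against 2026 and 2302 in HepG2 controls (1.32 ± 0.20, adjusted p = 0.000498, limma), and ATG9A, the transmembrane scramblase of autophagy vesicles, was lower, at -0.88 ± 0.13. Nucleation had 0 higher and 3 lower (AMBRA1, ATG14 and PIK3C3, from -0.68 to -0.58). Initiation had 2 higher (RB1CC1 at 1.03 and ULK1 at 0.85) and 1 lower (ATG13, -0.49). The shares higher and lower were 0% and 50% of 6 nucleation genes and 40% and 20% of 5 initiation genes. Over all genes they were 26.8% and 31.6%. Probes of 7 genes disagreed on the call. The brighter UVRAG probe had 0.21 and the dimmer 1.70, and the brighter ULK2 probe had 0.28 and the dimmer -1.57, so no direction is given for either gene. A dimmer ATG3 probe was called at 1.13, against 0.50 for the brighter, while further probes of ATG2B (0.18), ATG7 (-0.29), ATG12 (0.32) and WIPI2 (0.18 to 0.51) kept the sign of the called probe without a call. STX17, called by no probe, had -0.04 in its brightest probe and 0.26 in its dimmest. Leaving out a control array of either line ended the calls of ATG12, ATG13, ATG14, ATG4D and WIPI2 (adjusted p 0.0504 to 0.181), and the other 19 called differences held without any 1 array.

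**Figure D4:**
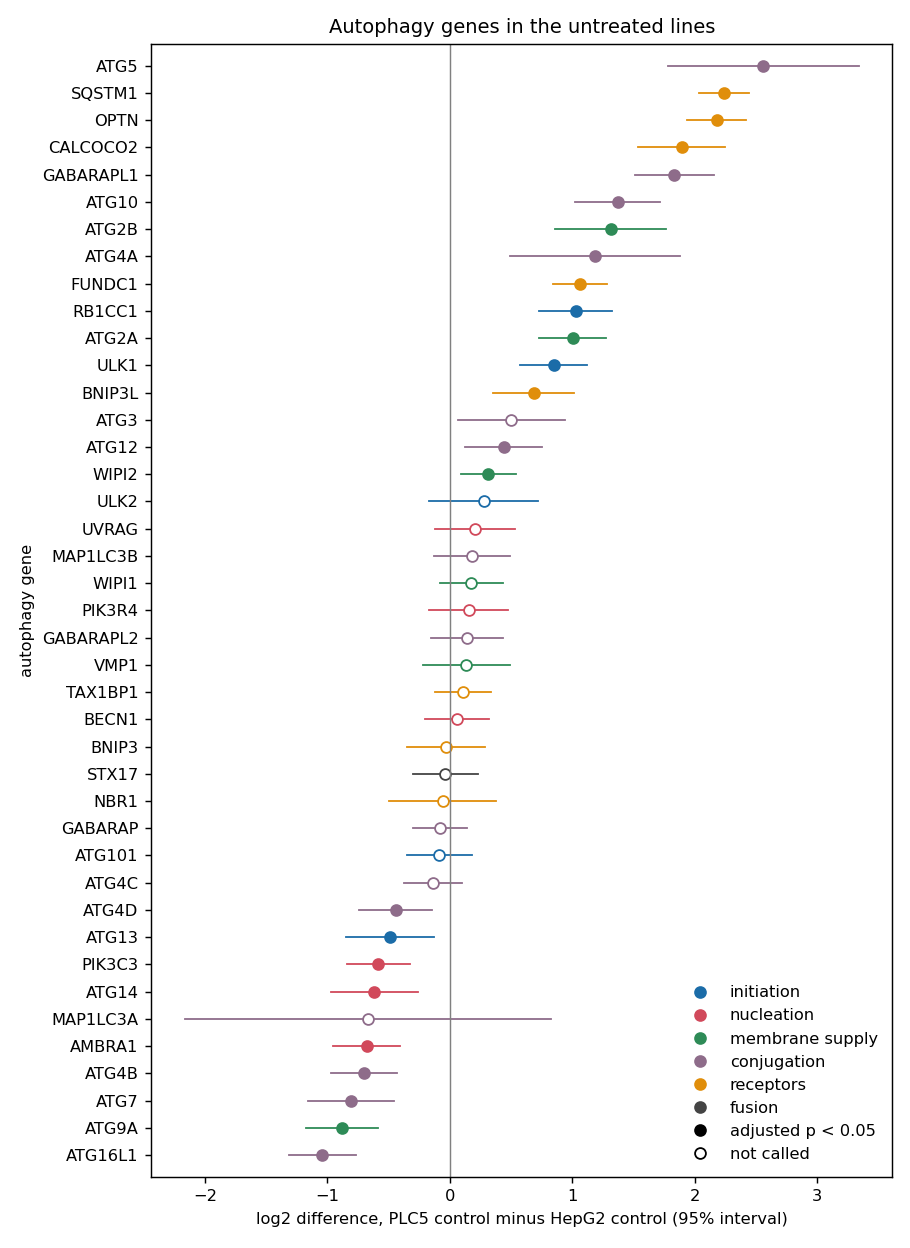
Difference between PLC5 control and HepG2 control cells for each autophagy gene (log2, x axis, with 95% intervals), ordered by size; filled points were called. ATG5, SQSTM1 and OPTN lie above 2 and ATG16L1 is lowest at -1.04.

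Other genes of the pathway add regulators and the later steps. Of 32 further autophagy genes measured, 1 was called higher in PLC5 (3.12%, against 0.834% of all genes) and 0 lower. In HepG2, 3 were higher (9.38%, against 5.35%) and 1 lower (3.12%, against 3.45%). TP53INP1, a p53 target that binds LC3 proteins, rose in both lines: it had 14689 and 14661 with GSK343 against 7881 and 7833 in control PLC5 cells (0.90 ± 0.10, adjusted p = 0.00346, limma), and 12234 and 12990 against 7293 and 7458 in HepG2 (0.77 ± 0.10, adjusted p = 0.00408, limma). Its relative TP53INP2, which also binds LC3 proteins, was called in HepG2 alone (1.05 ± 0.16, adjusted p = 0.00892, limma), with 0.40 in PLC5 and no call for the difference (adjusted p = 0.193, limma). VPS41, a tethering subunit of lysosome fusion, had 1.09 in HepG2 (270 and 194 against 107 and 108), and DRAM1, a lysosomal p53 target, had -0.45.

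Of 31 measured upstream regulators, 3 were called higher in PLC5 (9.68%, against 0.834% of all genes) and 0 lower. In HepG2, 5 were higher (16.1%, against 5.35%) and 7 lower (22.6%, against 3.45%). The regulators and the further autophagy genes were chosen with earlier results of these data known. Their shares are therefore descriptions, not tests. DDIT4, a stress-induced inhibitor of mTORC1, rose by nearly the same amount in both lines, with 8671 and 8126 with GSK343 against 3330 and 3566 in control PLC5 cells (1.28 ± 0.12, adjusted p = 0.00176, limma) and 3490 and 3818 against 1398 and 1583 in HepG2 (1.29 ± 0.12, adjusted p = 0.00132, limma). SESN2, another mTORC1 inhibitor, rose in PLC5 (1.03 ± 0.11, adjusted p = 0.00406, limma), had 0.10 in HepG2, and was the 1 regulator whose change differed between the lines (0.92, adjusted p = 0.0487, limma). DDIT3 (CHOP), a transcription factor of endoplasmic reticulum stress, rose in PLC5 by 0.96 ± 0.15 (adjusted p = 0.0291, limma) and had -0.05 in HepG2. In HepG2 the largest changes beside DDIT4 were SESN3 (2.01), TSC1 (0.76), MITF (0.72) and PRKAA1 (-0.70). The TSC1 product restrains mTORC1, MITF is a relative of TFEB and PRKAA1 a catalytic subunit of AMPK. The sestrin gene SESN3 (74.8 and 89.8 against 21.4 and 19.2) and MITF (92.8 and 110 against 67.8 and 55.6) were dim. DEPTOR, the remaining regulator called higher in HepG2, had 0.57 there (adjusted p = 0.0306, limma). In PLC5 it had 0.64 without a call (adjusted p = 0.0659, limma). TFEB itself was called lower in HepG2 (-0.60 ± 0.15, adjusted p = 0.0426, limma) and had 0.35 in PLC5. The other 5 called lower were MCL1, BCL2L1, PRKAA2, FOXO1 and MTOR, from -0.66 to -0.39. For PRKAA2, FOXO1 and MTOR the adjusted p was close to the threshold (0.0438 to 0.0496, limma). Calls among the regulators and the further autophagy genes were not checked with left-out arrays or other settings.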

How the data were processed

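Amino-allyl antisense RNA of each sample was coupled to Cy5 and hybridized to 1-colour arrays, per the labels' protocols. The deposited values are linear intensity values, with 1 value for each probe of an array. Which scanner software, background correction and flags the authors used is not given in the sources here. The medians differ between arrays, so no normalization between arrays is visible. The 41 genes and the other lists were chosen with earlier results of these data known. Probe symbols came from the platform annotation (24740 probes with 1 symbol, 977 with several, 6024 with none), and 1948 symbols were updated and 70 left unmatched through RefSeq's gene table for GRCh38.p14.

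Intensities were quantile normalized, floored at 1 and taken to log2. Group means were fitted to all 8 arrays in limma 3.58.1 (R 4.3.3; lmFit, then eBayes with an intensity trend; residual degrees of freedom 4, prior 4.75) and adjusted over all probes; the fit was tested on simulated data. Precision is limited by the 2 arrays of a group and by signal: across probes the residual SD (log2) fell off with brightness, with 0.473 for the dimmest 10% and 0.118 for the brightest. Members are named where called or among the 8 largest changes of a comparison. Genes of other lists are named where called, up to 5 a list and line. DEPTOR and the regulators called lower in HepG2 beside PRKAA1 were named after their values were seen. FOXO3 and HNF4A were not analysed here.

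Alternatives were median centring, no normalization, a filter on dim probes, a pseudocount of 16, a floor of 64, eBayes without trend, a replicate block, the 4 arrays compared alone, the median of a gene's probes and leaving out each array. Replicate numbers did not pair the samples: deviations of same-numbered arrays correlated at -0.10 in HepG2 and -0.02 in PLC5.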

Additional observations from a re-analysis of the deposited data

Results flagged for a closer look

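WIPI1 was the only autophagy gene whose change with GSK343 differed between the lines by a test of the difference: the change in PLC5 minus that in HepG2 was 0.98 (log2, adjusted p = 0.0469, limma). Both treated PLC5 arrays lay above both PLC5 controls, and the HepG2 arrays overlapped. The call was lost whichever of the 8 arrays was left out, and in 4 of 8 other settings. Those other settings gave 0 to 3 called autophagy genes for the difference.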

How the results depend on the processing

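With 2 arrays a group, the counts of called members moved with the processing. Of the 41 genes, none that was called after GSK343 kept its call in every setting and every left-out array. The cause was not tested. In PLC5 the 4 calls became 2 with median centring, 2 without normalization, 0 with eBayes without trend, 1 with the replicate block, 1 on the 4 arrays compared and 1 to 3 with an array left out. In HepG2 the 4 became 15 without normalization, 1 without trend, 0 with the replicate block, 2 on the 4 arrays compared and 0 to 3 with an array left out. The 1 call for the difference between the lines became 0 with median centring, without normalization, without trend, with the replicate block and without any 1 array, 2 with a floor of 64 and 3 with the median of a gene's probes. With the replicate numbers of HepG2 crossed, chosen after seeing the data, a crossed replicate block gave 3 calls in HepG2, 2 in PLC5 and 0 for the difference. The list's median changed to 0.0445 in PLC5 with median centring and to 0.45 in HepG2 without normalization, where all genes had 0.48. Between the untreated lines 21 to 25 of 41 genes were called with an array left out and 12 of the 24 calls held in every setting. Without normalization, which moves the median probe by 0.86 between the lines, 7 genes reversed: ATG13 0.52, PIK3C3 0.33, ATG14 0.30, AMBRA1 0.34, ATG4B 0.32, ATG4D 0.58 and ATG7 0.22. All other settings kept each called gene's direction.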
